A study of Mus musculus with 23 samples.

Results

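The genes described here are the potassium channel genes of sorted mouse microglia. They were taken as every probe set whose annotated symbol starts with Kcn, which gave 90 of the 22203 probe sets on the array, each with a symbol of its own. Of these 90 genes, 89 code for proteins and 1, Kcnq1ot1, is a long noncoding RNA, per RefSeq. The symbol prefix covers pore subunits, auxiliary subunits and a few regulators. Membership rests on the symbol alone, but this rule was chosen with earlier results of these data known.

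Microglia, the resident macrophages of the brain, hold a negative membrane potential mainly through potassium conductances. Two-pore domain channels carry a background potassium current, inward rectifiers of the Kir family carry current at negative potentials, and voltage-gated and calcium-activated channels repolarise the cell after it is stimulated. Potassium efflux is also a known trigger of the NLRP3 inflammasome, and cultured or activated microglia are known for currents through the channels encoded by Kcna3, Kcnj2 and Kcnn4.

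Expression was measured on 23 arrays of CD45+ and CD11b+ microglia from cortex and hippocampus. C57BL6 mice (WT) were sampled at the ages of 3 months (n = 4) and 12 months (n = 4). APPswlnd mice (APP), a model of amyloid deposition, gave 3 samples at 3 months and 4 at 12 months, and P301S PS19 mice (TAU), a model of tau pathology, gave 4 at 3 months and 4 at 9 months. The age and source fields of the older TAU samples say 9 months while their titles say 12 months, and 9 months was used. The labels call the young APP and TAU mice pre-pathology and the older ones pathologic. The older APP and TAU samples were sorted for Clec7a, a C-type lectin receptor, as active microglia, and are called gated APP and gated TAU here. No Clec7a gate is named for any other group, so transgene, pathology and gate differ together between a gated group and WT at 12 months, and the TAU mice were also younger. Effects of these differences cannot be told apart. The labels call the replicates biological without saying that each came from a separate mouse, so p-values measure the spread between these samples. Sex is not given. Mean signals of Y-linked genes ranged over samples from 6.98 to 7.46 in young WT, 4.14 to 4.62 in young APP and 4.0 to 6.88 in young TAU. In the older groups they were 6.06 to 7.31 in WT, 4.16 to 7.13 in gated APP and 4.50 to 6.78 in gated TAU. Neither young APP nor young TAU overlapped young WT in this signal, so effects of transgene and Y-linked signal cannot be told apart in either young comparison. In such bulk samples, fewer cells of a type and less RNA per cell cannot be told apart.

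All 9 measured microglia markers, among them Cx3cr1, P2ry12 and Tmem119, were above background in all 6 groups. In the 3 older groups 4 measured monocyte markers and 4 B cell markers were at background. Of 6 T and NK cell markers, Cd4 was above background in each of these 3 groups. Of 6 neutrophil markers, S100a9 was above background in WT at 12 months but in neither gated group. WT 12 months replicates 2 and 4 stood apart: their arrays had the highest background levels of the 12 older arrays, 8.70 and 8.72, against 8.0 and 7.24 for replicates 1 and 3. The counts against WT at 12 months are therefore also given without these 2 arrays.

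Values are deposited log2 signals, so a difference of 1 is a 2-fold change. A signal was called above background in a group where its mean exceeded the 95th percentile of 1449 probe sets for olfactory, vomeronasal and taste receptors, genes taken as silent in microglia. That level was 7.73 in WT at 3 months, 8.0 in APP at 3 months, 7.89 in TAU at 3 months, 8.12 in WT at 12 months, 7.74 in gated APP and 7.83 in gated TAU. A probe set at background was not shown to be unexpressed. Signals of different probe sets were not compared with each other, because probe affinity differs. Differences were tested with limma and called at a Benjamini-Hochberg adjusted p under 0.05 over all 22203 probe sets. Where the lower group lay at background, the fold is given as at least the higher mean over the background level.

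RefSeq's promoter table (build GRCm38.p6) held 69 of the 90 genes. The 250 bases before the annotated start of 2 inward rectifier genes are shown because these genes moved in opposite directions in gated APP. Kcnj2, encoding the strong inward rectifier Kir2.1, was higher in both gated groups, though all its group means were at background. Kcnj13, encoding the weak rectifier Kir7.1, was lower in gated APP, a call that was lost without gated APP replicate 1. Both windows are written 5′ to 3′ on the gene's strand, Kcnj2 from chr11:111065914-111066163 on the plus strand and Kcnj13 from chr1:87394730-87394979 on the minus strand. Capitals mark matches on either strand to ACGTG, the core motif of hypoxia-inducible factors, and to TATAAA, the TATA box.
Kcnj2: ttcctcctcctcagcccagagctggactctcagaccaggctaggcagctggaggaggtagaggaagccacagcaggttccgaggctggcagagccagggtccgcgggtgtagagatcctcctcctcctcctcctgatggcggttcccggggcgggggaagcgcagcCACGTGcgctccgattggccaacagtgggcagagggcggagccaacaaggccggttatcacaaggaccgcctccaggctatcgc
Kcnj13: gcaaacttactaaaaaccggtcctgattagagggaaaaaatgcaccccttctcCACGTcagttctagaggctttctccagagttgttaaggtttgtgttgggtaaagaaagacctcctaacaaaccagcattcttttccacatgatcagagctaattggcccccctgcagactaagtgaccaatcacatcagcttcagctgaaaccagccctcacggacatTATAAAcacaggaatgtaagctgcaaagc
The Kcnj2 window was 65.6% G or C, with 2 overlapping matches to ACGTG, 1 on each strand, and no TATAAA. The Kcnj13 window was 45.2% G or C, against a median of 52.4% over all 32851 windows, and had 1 match to ACGTG and 1 to TATAAA, at -29 from the start. ACGTG was present in 16.6% and TATAAA in 12.4% of all windows of this length. Neither window had GGAAGT, a motif of PU.1 and other ETS factors (19.7% of all windows), or TGANTCA, the AP-1 motif (6.75%). Kcnd1 and Kcnk6 are not in the promoter table.

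Few potassium channel genes gave a signal above background, and Kcnd1, Kcnk6 and Kcnk1 did so in every group. Kcnk1 did so narrowly in WT at 12 months, with a mean of 8.135 against a background level of 8.1175. With the 99th percentile as background it passed in no group. In WT at 3 months 12 of 90 members were above background (13.3%), against 37.4% of all probe sets. APP at 3 months had 9 of 90 (10%, against 34.1% of all probe sets) and TAU at 3 months 9 of 90 (10%, against 35.3%). The count was 6 of 90 in WT at 12 months (6.67%, against 32.5%), 8 in gated APP (8.89%, against 36.7%) and 9 in gated TAU (10%, against 35.3%). Each group's share of potassium channel genes was below the share of all probe sets. Besides these 3 genes, 10 further members were above background in at least 1 group, and 77 members in none.

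These counts moved with the threshold. With the 90th percentile as background they were 15 to 17 in the 3 older groups and APP at 3 months, and with the 99th percentile 1 or 2 in every group. The count in WT at 12 months was 3 without replicate 3 and 10 without replicate 4, and that in APP at 3 months was 5 without replicate 2.

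By role, 2 of 36 voltage-gated pore subunits were above background in at least 1 group, Kcnd1 and Kcna3. Of 12 auxiliary subunits of voltage-gated channels 3 were, Kcnab2, Kcnip3 and Kcnip4. None of 11 calcium- or sodium-activated channel genes passed. Among 15 inward rectifiers Kcnj13 and Kcnj14 did, and among 14 two-pore domain channels 5 did, Kcnk1, Kcnk4, Kcnk6, Kcnk7 and Kcnk15. Kcnrg, a regulator that is no channel itself, was above background and Kcnq1ot1 was not.

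**Figure D1:**
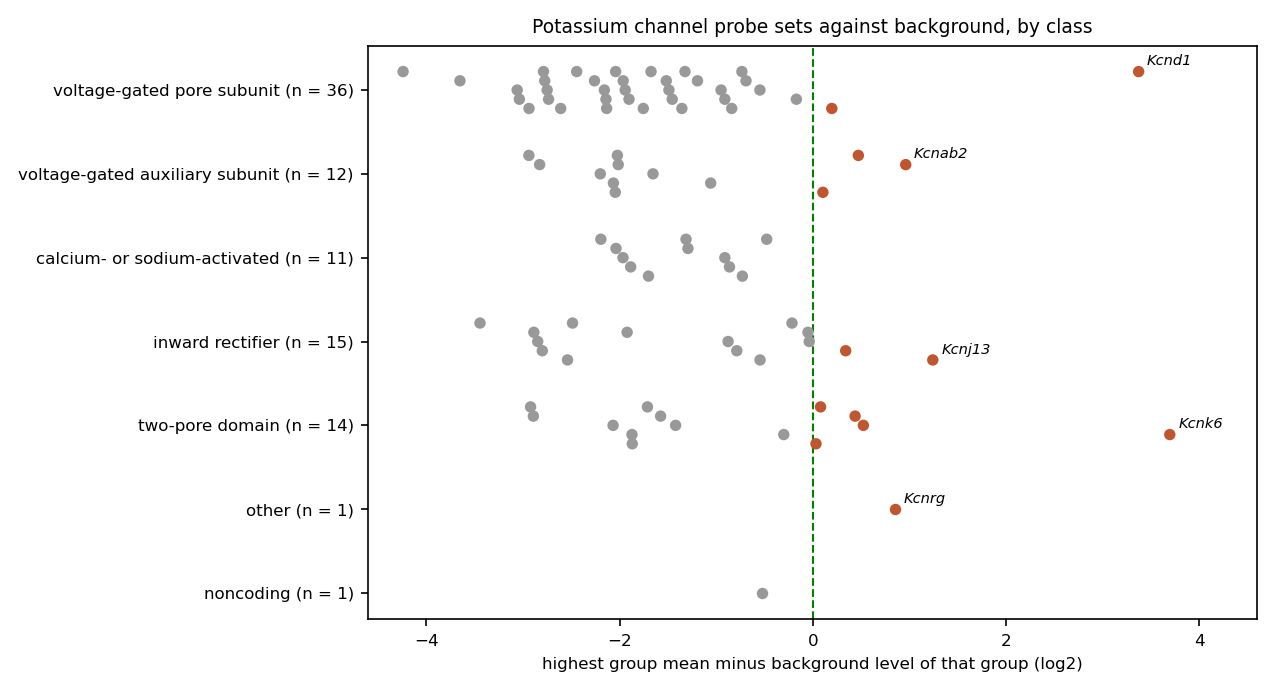
Each point is 1 of the 90 potassium channel probe sets, in rows by channel class, and the x axis gives its highest group mean minus the background level of that group on the log2 scale. The dashed line at 0 is the background level, and the 13 points in red lie above it in at least 1 group. Distances from the line are not comparable between probe sets, whose affinities differ.

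Active cells of the 12-month APP mice were set against WT microglia of that age to see which channel genes differ in the amyloid model. Kcnd1, Kcnk6, Kcnip3, Kcnj13 and Kcnj12 were lower and Kcnj2, Kcnab2 and Kcnh2 higher, 8 called members of 90. The 3 higher calls stand against 5.6% of all probe sets called higher in this comparison, and the 5 lower calls against 3.48% called lower. The median log2 difference of the 90 members was -0.06, and that of all probe sets also -0.06. Of the 8 called members, 6 differed at least 2-fold.

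The count of 8 was 2 without WT 12 months replicate 1, 5 without WT 12 months replicate 2 or 4 or gated APP replicate 3, and 4 without gated APP replicate 1. It was 3 in a fit on these groups alone and 4 without WT 12 months replicates 2 and 4, when Kcnd1, Kcnip3, Kcnk6 and Kcnj12 remained.

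Gated TAU microglia at 9 months, compared with the same 4 WT samples, had 4 called members: Kcnj2 and Kcna3 were higher and Kcnd1 and Kcnrg lower. All probe sets were called higher in 5.09% and lower in 3.67% of cases. The median log2 difference of the members was 0.04, against -0.05 over all probe sets. Without WT 12 months replicate 1, without replicate 4 or without replicates 2 and 4 together, the count was 2, Kcnd1 and Kcnj2. Since both gated groups were set against the same WT samples, the values of each gene are given side by side below.

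**Figure D2:**
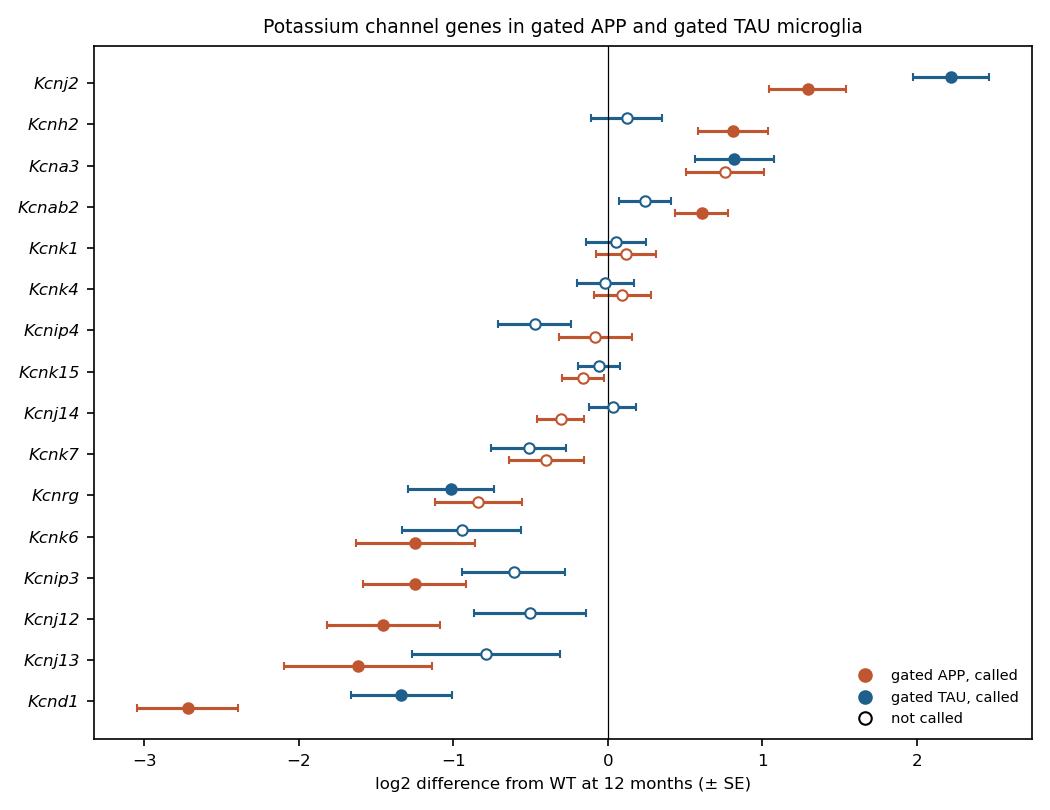
The x axis gives the log2 difference from WT at 12 months, with its SE as bars, for gated APP (orange) and gated TAU (blue), and the rows are the 16 potassium channel genes that were called in these comparisons or above background in a group. Filled points passed the adjusted p threshold; Kcnd1 lies at -2.72 and -1.34, and Kcnj2 at 1.30 and 2.22.

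Kcnd1 encodes Kv4.1, a pore subunit of fast-inactivating A-type potassium channels. WT samples at 12 months were at 11.07, 10.45, 11.67 and 10.70, gated APP samples at 7.33, 8.58, 8.90 and 8.20, and gated TAU samples at 9.65, 9.47, 9.77 and 9.65. The young samples were at 9.93, 11.43, 11.69 and 11.10 in WT, 11.28, 11.20 and 11.42 in APP, and 11.28, 11.24, 11.55 and 10.98 in TAU. All 4 gated APP samples were below all 4 gated TAU samples, which were below all other samples, so neither gated group overlapped WT at 12 months. Means were 10.97 ± 0.53 (SD, n = 4) in WT at 12 months, 8.25 ± 0.68 (n = 4) in gated APP and 9.64 ± 0.12 (n = 4) in gated TAU. The fall was 6.59-fold in gated APP (log2 difference -2.72 ± 0.33 SE, limma adjusted p = 3.46e-06) and 2.53-fold in gated TAU (-1.34 ± 0.33, adjusted p = 0.011). Both calls held under all 16 alternatives run for each, with 1 library left out included. In gated APP 3 of 4 samples were still above background, and replicate 1 was below it.

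The difference between the gated groups was tested directly. Kcnd1 was 2.61-fold lower in gated APP than in gated TAU (-1.38 ± 0.33, adjusted p = 0.0404), the 1 called member of 90, against 0.302% of all probe sets called lower and 0.626% called higher. Same-numbered samples of the gated groups deviated together, and with the replicate number as a block the adjusted p was 0.0114, or 0.0301 with the block in a fit on the gated groups alone, a setting added after seeing the data. Without the block it was 0.0804 in a fit on the gated groups alone, and with arrays centred on their medians 0.0826. Leaving out gated APP replicate 1, 2 or 4 or any 1 gated TAU sample ended the call, with adjusted p between 0.058 and 0.143. Without gated APP replicate 3 it was 0.0214 and Kcnj2 was called too.

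Kcnip3 encodes a calcium-binding protein, also called DREAM or calsenilin, that associates with Kv4 channels and acts as a transcriptional repressor. Its signal was 8.92, 8.06, 9.35 and 8.03 in WT at 12 months, 6.78, 6.92, 7.88 and 7.78 in gated APP, and 7.86, 7.59, 8.12 and 8.35 in gated TAU. Gated APP samples were all below the WT samples, while gated TAU samples overlapped them. The gated APP mean of 7.34 ± 0.57 (n = 4) was at background, so that the fall from 8.59 ± 0.65 (n = 4) was at least 1.81-fold (-1.25 ± 0.33, adjusted p = 0.0173). In gated TAU the log2 difference was -0.61 ± 0.33 (adjusted p = 0.297). The gated APP call was lost in a fit on these groups alone (adjusted p = 0.0782) and without WT 12 months replicate 1 or 3 or gated APP replicate 1 or 2 (0.054 to 0.0751).

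Kcna3 encodes Kv1.3, the voltage-gated channel best known from activated lymphocytes and microglia. It was at 7.45, 7.18, 7.53 and 6.54 in WT at 12 months, 8.09, 8.28, 7.63 and 7.74 in gated APP, and 7.40, 8.78, 7.86 and 7.94 in gated TAU. The 11 young samples lay between 6.52 and 7.19, all below every gated sample. Kcna3 was above background only in the gated groups, in 3 of 4 samples of each, at 7.93 ± 0.30 (n = 4) and 8.0 ± 0.57 (n = 4). Against WT at 12 months it was higher in gated TAU (0.82 ± 0.25, adjusted p = 0.046), with overlapping samples. Gated APP samples did not overlap WT, but the difference of 0.76 ± 0.25 had an adjusted p of 0.0658. No fold bound is given because both gated means lay under the WT background level of 8.12.

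Its gated TAU call was lost with arrays centred on their medians (adjusted p = 0.0506), in a fit on these groups alone (0.179), without WT 12 months replicates 2 and 4 (0.382), and without any 1 of WT 12 months replicates 1, 2 or 4 or gated TAU replicates 2, 3 or 4 (0.0512 to 0.184). The gated APP difference was called with array weights (0.0462), with the replicate number as a block (0.0457) and with Y-linked expression as a covariate (0.0236). Against the young samples of the same transgene Kcna3 was called in both, at 1.17 ± 0.27 for gated APP (adjusted p = 0.00544) and 1.09 ± 0.25 for gated TAU (adjusted p = 0.00464). The first of these was lost with the Y-linked covariate (adjusted p = 0.058).

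Kcnab2 encodes the Kvβ2 subunit, a cytoplasmic partner of Kv1 channels with an oxidoreductase fold. WT samples at 12 months were at 8.11, 7.99, 8.28 and 7.99, gated APP samples at 8.76, 8.48, 8.76 and 8.80, and gated TAU samples at 8.24, 8.56, 7.94 and 8.60. Only the gated APP samples stood clear of WT. The WT mean of 8.09 ± 0.14 (n = 4) was at background, and the rise to 8.70 ± 0.15 (n = 4) in gated APP was at least 1.5-fold (0.61 ± 0.17, adjusted p = 0.0242). The difference in gated TAU was 0.24 ± 0.17 (adjusted p = 0.438). The call was lost in a fit on these groups alone (0.0684), without WT 12 months replicates 2 and 4 (0.22), and without any 1 of WT 12 months replicates 1, 2 or 4 or gated APP replicates 1, 3 or 4 (0.0505 to 0.0729). Kcnab2 overlaps Nphp4 in RefSeq; Nphp4 had a log2 difference of -0.12 in the same comparison (adjusted p = 0.828).

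Kcnrg encodes a protein with a tetramerisation domain that is known to interfere with the assembly of Kv1 channels. It was at 8.49, 8.32, 8.62 and 8.65 in WT at 12 months, 7.32, 8.18, 7.51 and 7.72 in gated APP, and 7.32, 7.54, 7.45 and 7.71 in gated TAU. Samples of both gated groups were all below WT at 12 months. In gated TAU it fell from 8.52 ± 0.15 (n = 4) to background at 7.50 ± 0.16 (n = 4), at least 1.62-fold (-1.01 ± 0.28, adjusted p = 0.0247). The gated APP difference of -0.84 ± 0.28 was not called (adjusted p = 0.0669), but was in a fit on these groups alone (0.0456) and with the replicate number as a block (0.0451). The gated TAU call was lost with arrays centred on their medians (0.0508), without WT 12 months replicates 2 and 4 (0.0946) and without WT 12 months replicate 1 or 4 or gated TAU replicate 1 or 3 (0.0515 to 0.0711). Kcnrg overlaps Trim13 and Dleu2, and Trim13 was at background with a log2 difference of 0.16 in gated TAU (adjusted p = 0.849).

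Kcnk6 encodes TWIK-2, a two-pore domain channel known in macrophages as a path for the potassium efflux that activates NLRP3. WT samples at 12 months were at 11.13, 10.73, 11.67 and 9.97, gated APP samples at 9.34, 10.24, 9.53 and 9.41, and gated TAU samples at 10.03, 9.72, 10.23 and 9.74. Young samples lay between 10.66 and 12.54, all above every gated sample. WT replicate 4 was the lowest of its group and lay within the range of both gated groups. Kcnk6 was 2.37-fold lower in gated APP than in WT at 12 months, 9.63 ± 0.41 (n = 4) against 10.88 ± 0.72 (n = 4) (-1.25 ± 0.38, adjusted p = 0.0439). In gated TAU the mean was 9.93 ± 0.25 (n = 4) and the difference of -0.94 ± 0.38 was not called (adjusted p = 0.142). All 8 gated samples were well above their background levels.

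The gated APP call for Kcnk6 was lost in a fit on these groups alone (0.0681), with array weights (0.133), with arrays centred on their medians (0.0931), with the Y-linked covariate (0.0691) and without any 1 of WT 12 months replicates 1, 2 or 3 or gated APP replicates 1, 3 or 4 (adjusted p between 0.0747 and 0.119). Against the young samples of the same transgene it was lower in both: 3.93-fold in gated APP (-1.97 ± 0.42, adjusted p = 0.00208) and 3.15-fold in gated TAU (-1.66 ± 0.38, adjusted p = 0.00464), calls that held in all alternatives run for them.

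Kcnj13 encodes Kir7.1, known from ion-transporting epithelia such as the choroid plexus and retinal pigment epithelium. It was at 8.77, 9.14, 8.91 and 9.25 in WT at 12 months, 5.32, 8.60, 7.54 and 8.14 in gated APP, and 7.33, 8.33, 8.06 and 9.20 in gated TAU. Gated APP replicate 1 was far below its group, and gated TAU replicate 4 reached the WT range. The gated APP mean of 7.40 ± 1.45 (n = 4) was at background, at least 2.43-fold below the WT mean of 9.02 ± 0.22 (n = 4) (-1.62 ± 0.48, adjusted p = 0.0345). Without gated APP replicate 1 the difference was -0.92 (adjusted p = 0.131).

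Its call was also lost without WT 12 months replicate 1, 2 or 4 or gated APP replicate 3 (adjusted p between 0.054 and 0.0891), with array weights (0.0762), without WT 12 months replicates 2 and 4 (0.216) and in a fit on these groups alone (0.163). In gated TAU the difference was -0.79 ± 0.48 (adjusted p = 0.357). Kcnj13 lies within the span of Gigyf2, which was at background with a log2 difference of -0.18 in gated APP (adjusted p = 0.705).

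Kcnj2 encodes Kir2.1, the strong inward rectifier known from cultured or activated microglia. Its signal was 6.08, 5.36, 5.82 and 4.96 in WT at 12 months, 6.99, 6.71, 7.35 and 6.35 in gated APP, and 7.91, 8.17, 7.49 and 7.54 in gated TAU. The young samples lay between 4.70 and 5.91. All gated TAU samples were above all gated APP samples, which were above every ungated sample. The means were 5.55 ± 0.50 (n = 4), 6.85 ± 0.42 (n = 4) and 7.78 ± 0.32 (n = 4), so that all groups were at background by the rule used, though 2 of 4 gated TAU samples were above it. The log2 difference from WT was 2.22 ± 0.25 in gated TAU (adjusted p = 1.74e-06) and 1.30 ± 0.25 in gated APP (adjusted p = 0.00107). No fold is given for signals this low.

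The Kcnj2 rise in gated TAU held in all 15 alternatives run, and that in gated APP was lost in 1 of the alternatives run, without WT 12 months replicates 2 and 4 (0.90, adjusted p = 0.0582). Between the gated groups the difference was -0.93 ± 0.25, lower in gated APP, with an adjusted p of 0.0923. With the replicate number as a block over all groups the adjusted p was 0.0229, and with the block in a fit on the gated groups alone, a setting added after seeing the data, 0.163. The same gene was higher by 2.77 ± 0.25 in gated than in young TAU cells (adjusted p = 4.95e-08) and by 1.21 ± 0.27 in gated than in young APP cells (adjusted p = 0.00335).

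The other 2 members called in gated APP also had both groups at background. Kcnj12, encoding the inward rectifier Kir2.2, was at 8.12, 6.78, 8.10 and 7.29 in WT at 12 months and at 7.01, 5.31, 6.19 and 5.97 in gated APP (-1.45 ± 0.36, adjusted p = 0.0114). Gated TAU samples were at 7.37, 7.31, 6.21 and 7.39 and overlapped WT at 12 months, and the WT mean at 3 months was 6.12 ± 0.52 (n = 4). The call was lost without WT 12 months replicate 1 (0.0503) or gated APP replicate 2 (0.0509) and in a fit on these groups alone (0.0596). Kcnh2, encoding the hERG channel, was at 6.38 ± 0.58 (n = 4) in gated APP and 5.57 ± 0.13 (n = 4) in WT (0.81 ± 0.23, adjusted p = 0.0243). It was not called without WT 12 months replicate 1 or 4 or gated APP replicate 2 or 3 (0.0575 to 0.124), without WT 12 months replicates 2 and 4 (0.078) or in a fit on these groups alone (0.134).

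**Figure D3:**
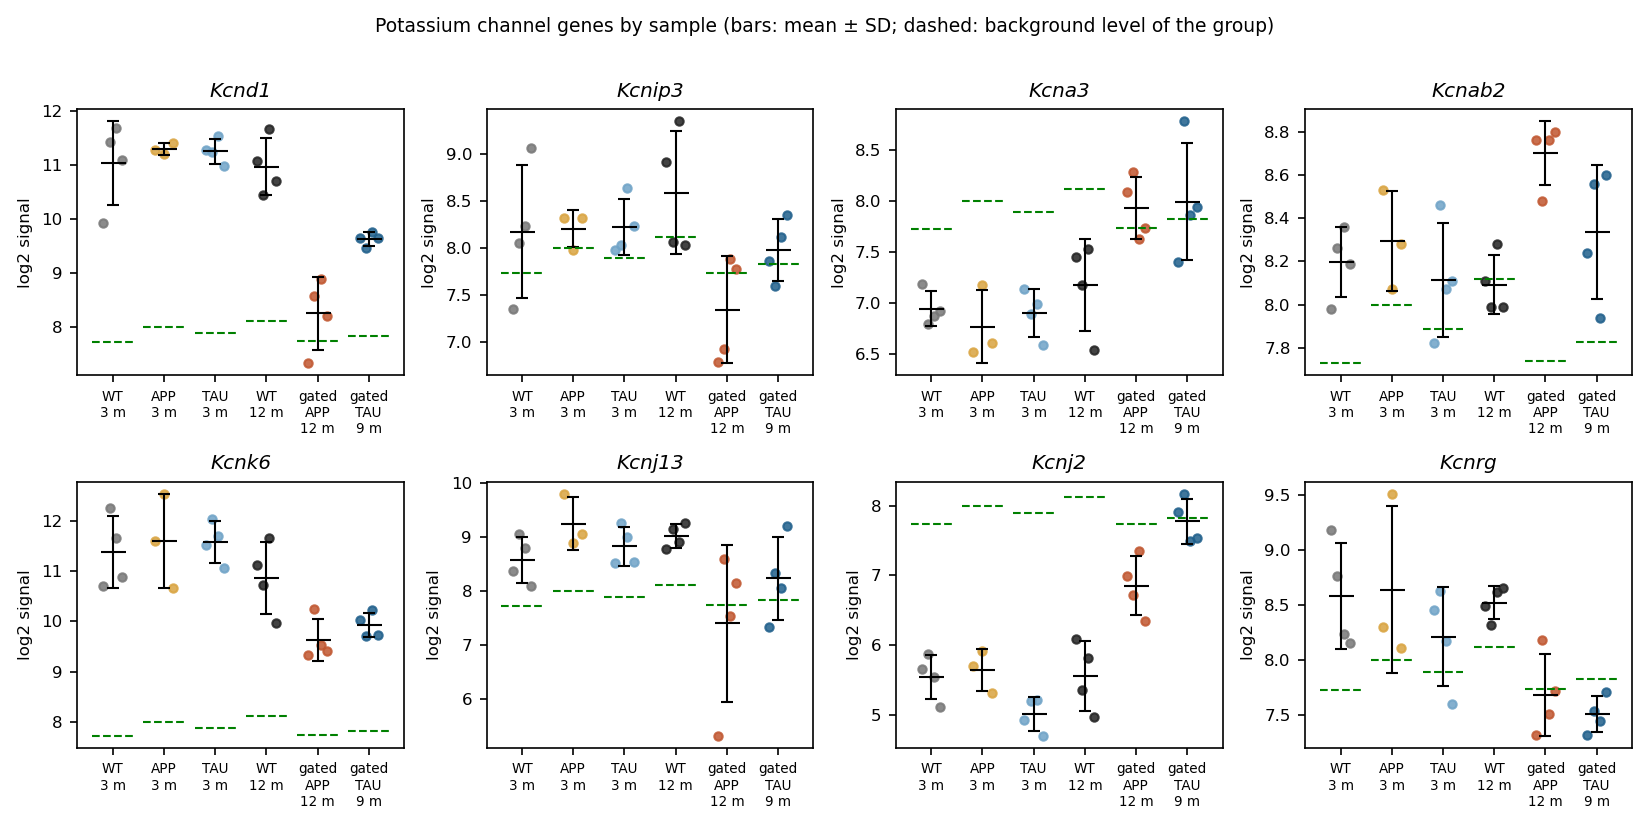
The panels plot the log2 signal of 8 potassium channel genes in each of the 23 samples by group, with group mean and SD as bars and the group's background level as dashes. Gated samples lie below the other groups for Kcnd1 and Kcnk6, with WT 12 months replicate 4 of Kcnk6 at 9.97 inside their range, and above the other groups for Kcnj2.

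Kcnn4, Kcnk13 and Kcna5, also known from microglial electrophysiology, had no group mean above background. For Kcnk13 1 gated APP sample was above it, and for Kcna5 1 young WT and 1 gated TAU sample. Kcnn4, encoding the calcium-activated channel KCa3.1, was at 5.85, 5.60, 5.60 and 4.99 in WT at 12 months, 5.00, 5.52, 6.01 and 5.67 in gated APP, and 6.40, 6.03, 5.17 and 5.56 in gated TAU. Kcnk13, encoding THIK-1, which sets the resting potential of brain microglia, was at 7.29, 7.39, 6.89 and 7.18 in WT at 12 months, 7.38, 7.26, 7.86 and 7.25 in gated APP, and 7.09, 7.41, 7.41 and 7.12 in gated TAU. Kcna5, encoding Kv1.5, was at 7.46, 7.65, 7.90 and 7.90, then 7.13, 7.64, 7.49 and 7.39, and 7.15, 7.78, 8.01 and 7.69 in the same order. The groups overlapped for all 3 genes and none was called in either comparison. Their log2 differences lay between -0.32 and 0.28, and young samples were between 5.21 and 5.86 for Kcnn4, 6.87 and 7.19 for Kcnk13, and 6.95 and 7.83 for Kcna5.

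Of the members above background that were not called in any comparison, Kcnk1, encoding TWIK-1, had means between 8.06 and 8.41 over the 6 groups, and Kcnk4, encoding the mechanosensitive channel TRAAK, between 8.01 and 8.17. The inward rectifier Kcnj14 lay between 7.79 and 8.13, the Kv4 partner Kcnip4 between 7.45 and 7.92, Kcnk15 between 7.64 and 7.81 and Kcnk7 between 7.27 and 7.78. All 6 were within 1 log2 unit of background in every group.

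The young comparisons ask whether channel genes differ before the active cells were sorted. With limma no member was called in APP against WT at 3 months (0% of all probe sets called) and none in TAU against WT at 3 months (0% of all). At an unadjusted p under 0.05, 2 members passed in each (2.22%, against a higher share of all probe sets, 2.92% in APP and 4.15% in TAU). These were Kcnj10 (0.56) and Kcnj6 (-0.59) in APP, and Kcnj2 (-0.54) and Kcns3 (0.39) in TAU. WT at 12 against 3 months gave no called member either, against 0.036% of all probe sets. With an unadjusted p under 0.05, 3 members passed (3.33%, against 8.95% of all probe sets). The largest of these was Kcnj12, at 7.57 ± 0.65 (n = 4) against 6.12 ± 0.52 (n = 4), with samples that did not overlap, both means at background and an adjusted p of 0.338.

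Gated cells were also set against young cells carrying the same transgene, which takes out differences between strains but joins age, pathology and gate. For APP it also joins Y-linked signal, which was 4.14 to 4.62 in the young samples and 4.16 to 7.13 in the gated ones. In gated APP 5 members were higher (Kcna3, Kcnj2, Kcng3, Kcnh2 and Kcnj15; 6.19% of all probe sets) and 4 lower (Kcnd1, Kcnj13, Kcnk6 and Kcnrg; 5.95% of all). In gated TAU 4 were higher (Kcna3, Kcnj2, Kcnj15 and Kcnu1; 6.67% of all) and 3 lower (Kcnd1, Kcnk6 and Kcnmb1; 6.81% of all). Kcnd1 fell by 3.05 ± 0.35 in APP (adjusted p = 2.15e-06) and by 1.63 ± 0.33 in TAU (adjusted p = 0.00132). Kcnmb1, the β1 subunit of BK channels, fell by 0.82 ± 0.21 in TAU (adjusted p = 0.00903). Kcng3, Kcnh2, Kcnj15, Kcnu1 and Kcnmb1 were at background in both groups compared. The APP count of 9 was 5 without APP 3 months replicate 2 or gated APP replicate 3, 4 in a fit on these groups alone, and 5 with a filter on dim probe sets, which left 3 of the 7 TAU calls.

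The change of WT between 3 and 12 months was then subtracted from that of each transgene, although the TAU change spanned only 3 to 9 months. This left 1 called member for each transgene. For APP it was Kcnd1 (-2.98 ± 0.48, adjusted p = 0.000413), against 0.977% of all probe sets called lower and 2.82% called higher. For TAU it was Kcnj2 (2.76 ± 0.35, adjusted p = 2.76e-05), against 2.6% called higher and 1.15% called lower. The corresponding values were 1.20 ± 0.37 for Kcnj2 in APP (adjusted p = 0.0743) and -1.56 ± 0.46 for Kcnd1 in TAU (adjusted p = 0.0624). The APP count was 2 without WT 3 months replicate 4, WT 12 months replicate 1 or gated APP replicate 2 or 4, and the TAU count 2 without WT 3 months replicate 3 or 4 or WT 12 months replicate 3.

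A list of 69 genes of potassium and membrane potential handling outside the Kcn symbols, such as sodium pump subunits, calcium release genes, volume-regulated chloride channels, purinergic receptors and inflammasome genes, had 59 measured genes. In gated APP 6 rose and 5 fell, against 5.6% of all probe sets called higher and 3.48% called lower. The median log2 difference of the 59 genes was 0.06, against -0.06 over all probe sets. In gated TAU 6 rose and 4 fell, against 5.09% of all probe sets called higher and 3.67% called lower, with a median of 0.03 against -0.05. The largest rise in both was Clic4, a chloride intracellular channel protein, from 9.51 ± 0.75 (n = 4) in WT at 12 months to 13.95 ± 0.39 (n = 4) in gated APP (4.45 ± 0.36, 21.8-fold, adjusted p = 7.66e-09) and 13.51 ± 0.50 (n = 4) in gated TAU (4.0 ± 0.36, adjusted p = 6.02e-08). Il1b, the cytokine processed by the inflammasome, rose by 3.00 ± 0.35 in gated APP (adjusted p = 2.26e-06) and 3.16 ± 0.35 in gated TAU (adjusted p = 1.53e-06). The inflammasome genes Nlrp3, Nek7, Casp1 and Gsdmd were called in neither comparison. In WT at 12 months, gated APP and gated TAU, Nlrp3 had means of 12.4, 12.8 and 12.5 and Casp1 of 12.5, 12.6 and 12.8. Gsdmd was at 10.5, 9.97 and 9.97. Pycard, at 13.7, 14.4 and 14.7, was called higher in gated TAU only.

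Among the purinergic receptors, P2ry12, which couples to the potassium current of ramified microglia, fell in both (-1.27 ± 0.14, adjusted p = 7.14e-07, and -1.42 ± 0.14, adjusted p = 1.86e-07). P2rx4, an ATP-gated cation channel, rose in gated APP (1.26 ± 0.32, adjusted p = 0.011) and had a difference of 0.82 ± 0.32 in gated TAU (adjusted p = 0.115). P2rx7 was called in neither, with means of 9.70 in WT at 12 months, 8.85 in gated APP and 9.75 in gated TAU. Of the calmodulin genes, whose product is the calcium sensor of several potassium channels, Calm3 rose and Calm2 fell in both gated groups. The sodium pump subunit gene Atp1b3 rose by 0.73 ± 0.16 in gated APP (adjusted p = 0.00317) and 0.54 ± 0.16 in gated TAU (adjusted p = 0.0317), while Itpr2, an endoplasmic calcium release channel, fell in both. Lrrc8b rose at background levels in gated APP. It was the 1 partner gene called between the gated groups, higher in gated APP, against 0.626% of all probe sets called higher. None was called in the young comparisons or between the WT ages with limma.

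**Figure D4:**
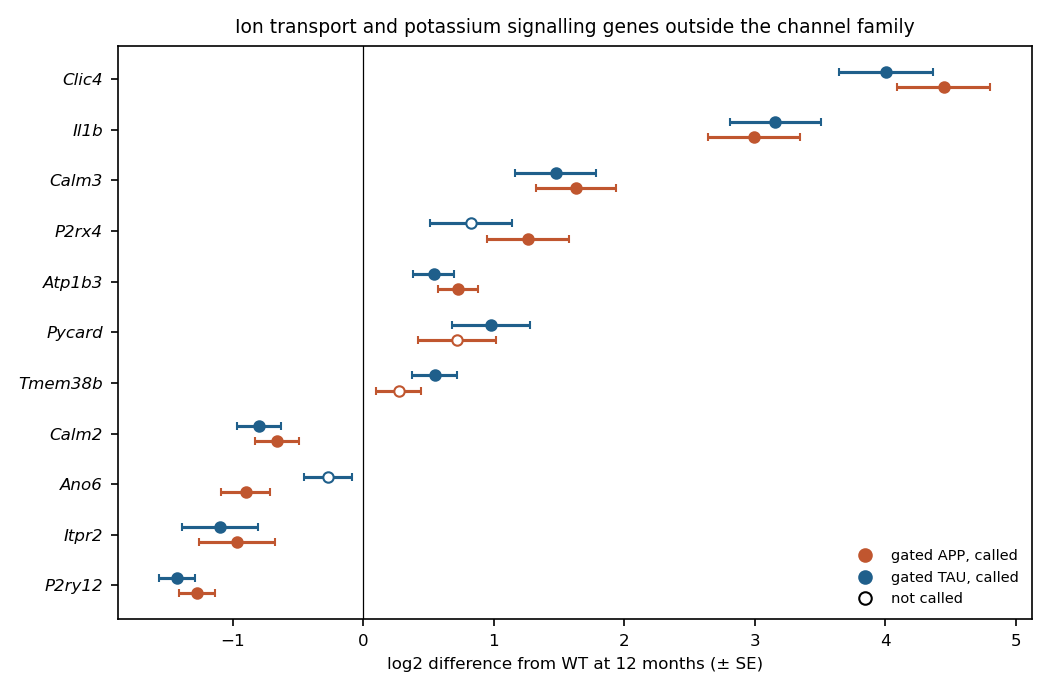
The x axis gives the log2 difference from WT at 12 months with its SE for 11 partner genes outside the Kcn symbols, in gated APP (orange) and gated TAU (blue), with filled points for called differences. Clic4 lies farthest right at 4.45 and 4.0, followed by Il1b, and P2ry12 farthest left.

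Several of these channel genes are also expressed in neurons and other cells, so marker levels are given beside the results. The mean log2 signal over 11 neuronal markers ranged over samples from 7.13 to 7.65 in WT at 12 months, 6.96 to 7.84 in gated APP and 7.32 to 8.71 in gated TAU. In each of these groups 4 were above background (Map2, Snap25, Syt1 and Camk2a), none was called, and Rbfox3, Nefl, Gad1, Gad2 and Slc17a7 were among those at background. Over 8 astrocyte markers the ranges were 7.69 to 8.41, 7.50 to 8.39 and 6.97 to 8.16, with 3, 4 and 3 above background, and 1 rose in gated APP. Over 9 endothelial and pericyte markers they were 6.68 to 7.36, 6.57 to 8.15 and 6.71 to 6.92, with 1, 3 and 2 above background; gated APP replicate 2, at 8.15, stood above the other 3 samples of its group (6.57 to 7.44). In gated APP 1 of these markers rose and 1 fell, and in gated TAU 1 rose. Of 6 neutrophil markers 1 fell in each gated group. Over 6 markers of border macrophages the range was 7.83 to 8.12 in WT at 12 months, 7.34 to 7.58 in gated APP and 7.68 to 8.39 in gated TAU, with 3, 2 and 3 above background, and 1 fell in gated APP. The microglia markers themselves had means of 15.8 to 16.2 in WT, 15.1 to 15.2 in gated APP and 15.2 to 15.4 in gated TAU, and 5 of 9 fell in each gated group. The part of these shifts in the channel differences was not tested.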

How the data were processed

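Total RNA of sorted microglia was hybridised to 23 mouse arrays after a 3′ labelling protocol from 5 ng of RNA, per the labels' protocols. Each deposited value is the log2 signal of 1 probe set; per the submitters' processing notes, the authors used RMA and the Transcriptome Analysis Console. Versions and the genome build are not given in the sources used here. Arrays had medians of 6.87 to 7.13 and replicates correlated at 0.931 to 0.986. Precision is limited by the number of arrays.

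The deposited values were fitted without further scaling in limma 3.58.1 (R 4.3.3): 1 mean per group, all 23 samples, 17 residual and 5.11 prior degrees of freedom, two-sided contrasts, Benjamini-Hochberg adjustment over 22203 probe sets. The script was tested on simulated data. Symbols came from the platform annotation (19572 probe sets with 1 symbol, 2631 with none), and all 90 members matched RefSeq by gene ID. No source used here gives the strand the probes read, so overlapping genes are named. Some other potassium channel genes are not reported here.

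The members, gene lists and rules were chosen with earlier results of these data known. Values in every sample were given for members called between the gated groups and WT at 12 months whose higher group was above background, and for channels known from microglia; other members are given by range or count. Same-numbered gated APP and gated TAU samples correlated in their deviations from the group means in all 4 pairs (r = 0.18 to 0.42). The replicate number was therefore also fitted as a block, while the main fit has no block. The labels give no pairing, and differently numbered samples were not correlated. These values therefore do not show that the replicate number pairs the samples. In every other contrast at least 1 pair was at or under 0.1. Alternatives were a fit on the compared groups alone, trended robust moderation, array weights, median centring, a filter on dim probe sets, the replicate block, a Y-linked covariate, other background rules, and leaving out each replicate or WT 12 months replicates 2 and 4. The replicate block on the gated groups alone was added after seeing the data.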

Additional observations from a re-analysis of the deposited data

Results flagged for a closer look

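In 55 groups of 4 samples tested for an outlying sample, 2 had one by Dixon's criterion, which chance meets in about 1 group in 20. Kcnab2 in gated APP replicate 2 was at 8.48, below the other 3 samples of its group, and Kcna5 in WT 3 months replicate 3 was at 7.83, above the others. Effects that differed between groups by a test of the difference itself were those of Kcnd1 and Kcnj2. Kcnd1 differed between gated APP and gated TAU by -1.38 (limma adjusted p = 0.0404), and its change in APP minus that in WT was -2.98 (adjusted p = 0.000413). For Kcnj2 the change in TAU minus that in WT was 2.76 (adjusted p = 2.76e-05).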

How the results depend on the processing

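Over 53 member results, 815 pairs of result and alternative gave 683 with the same direction and side of the threshold, 112 where a call was lost, 12 where one was gained and 8 where the sign changed. The sign changed only in 4 differences near 0 that were called under no setting run. Kcnn4 in gated APP against WT (0.04) was at -0.18 without WT 12 months replicates 2 and 4, and at -0.13 to 0.22 with 1 replicate left out. With 1 replicate left out, Kcnk13 in gated TAU against WT (0.07) was at -0.029 to 0.14, Kcna5 in gated TAU against WT (-0.07) at -0.19 to 0.10, and Kcna3 between the gated groups (-0.06) at -0.26 to 0.20. Counts of called members moved by over 1.5 times as follows, in the order gated APP against WT (8), gated TAU against WT (4), gated APP against gated TAU (1), gated APP against young APP (9), gated TAU against young TAU (7) and the APP and TAU changes minus that of WT (1 each). Fits on the compared groups alone gave 3 for gated APP against WT, 0 between gated groups and 4 against young APP. Array weights gave 3 for each change minus that of WT. Median centring gave 2 for gated TAU against WT and 0 between gated groups. The dim filter gave 5 against young APP, 3 against young TAU and 2 for the APP change. The replicate block gave 2 between gated groups, 3 for the APP change and 3 for the TAU change, and otherwise moved no count by over 1.5 times. The Y-linked covariate gave 8 for gated TAU against WT and 2 between gated groups. Without WT 12 months replicates 2 and 4 the counts were 4 for gated APP against WT, 2 for gated TAU against WT and 2 for the TAU change. Leaving out 1 replicate gave 2 to 9, 2 to 5, 0 to 2, 5 to 9, 5 to 8, 1 to 2 and 1 to 2 in the order above, and 0 in every comparison of young or WT groups.

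Members above background were 15 (APP 3 months), 15 (WT 12 months), 17 (gated APP) and 16 (gated TAU) with the 90th percentile, and 2 in every group with the 99th except 1 in gated APP. With every sample required to pass its own array's level they were 7 in WT, 4 in APP and 2 in TAU at 3 months, 3 in WT at 12 months, 2 in gated APP and 4 in gated TAU. Leaving out 1 replicate gave 10 to 13, 5 to 13 and 6 to 11 at 3 months, 3 to 10 in WT at 12 months, 6 to 11 in gated APP and 8 to 10 in gated TAU. Signal over background is the limit for 77 of 90 members, and for Kcnj2, whose group means were all at background.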
